A study of Arabidopsis thaliana with 41 samples.

Results

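The cysteine-rich receptor-like kinases (CRKs) of Arabidopsis thaliana were followed in rosette leaves of 7 natural accessions grown in drying or in watered soil. The members were the loci of a list of 41 CRK genes that had a value in the deposited table, and 35 of the 41 did, out of 21164 loci measured in all. CRK6, CRK8, CRK9, CRK15, CRK39 and CRK40 are not analysed here. Locus names and CRK numbers were matched through a RefSeq gene table (assembly TAIR10.1). It calls CRK1 (AT1G19090) RKF2 and CRK17 (AT4G23250) EMB1290, and CRK3 means AT1G70530 throughout.

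CRKs are kinases of the plasma membrane. Outside the cell they carry a pair of DUF26 domains with conserved cysteines, and inside it a serine/threonine kinase domain. Many CRK genes are induced by pathogens, by salicylic acid and by reactive oxygen species, and several members are known to act in immunity, cell death and abscisic acid responses. The family is expanded by tandem duplication. In the reference gene order CRK5 to CRK24 lie side by side, with 1 other protein-coding locus, AT4G23271, between CRK19 and CRK20, so that these 20 CRK genes fall within 21 successive protein-coding loci of chromosome 4.

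The dry plants came from Eden-1, Tamm-2, Ull2-5, Omo2-3, Bil-5, Got-22 and Ag-0, and on the fifth day of a slow drydown their pots held about 50% of the available soil water. The wet plants were of the same 7 accessions in pots kept near 90%. With 3 arrays a group, and 2 for Ag-0 in drying soil, there were 20 dry and 21 wet arrays of leaf RNA. Every plant had its own pot with about 150 ml of porous ceramic medium, under a 10 h photoperiod, and the plants' age is not given in the labels. Replicates are biological according to the design text, and nothing further is said of shared trays or harvests.

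Values are log2 array signals, and 1 unit is a doubling of signal. Array medians lay between 5.66 and 5.79, and correlations of an array with others of its group averaged from 0.951 to 0.991. Tamm-2 dry replicate 3 (array quality weight 0.327), Bil-5 dry replicate 3 (0.271) and Bil-5 wet replicate 2 (0.360) stood apart. The drying counts and some single calls are given with and without them. Differences of Bil-5 and Tamm-2 from the other accessions, and statements on the overlap of dry and wet arrays, are given with them only. The lower quartile of an array's values averaged 4.38, and a gene below it is called near the floor here, where the size of a change is not exact. The mean over all arrays was near the floor for 7 members (CRK1, CRK11, CRK13, CRK30, CRK31, CRK32 and CRK33). Probes may pair less well with an accession whose sequence differs, so poor pairing and low expression cannot be told apart in a low value of an accession. Leaf markers were high, with mean values of the 3 measured genes (PSBO1, PSBO2 and RCA) between 11.22 and 13.08 on dry arrays and between 11.30 and 12.78 on wet arrays, while the mean of 6 root markers stayed between 4.29 and 4.55 on dry arrays and between 4.28 and 4.50 on wet arrays.

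Under soil drying more members of the family fell than rose. As a mean over the 7 accessions, 12 of 35 members (34.3%) fell and 2 (5.71%) rose in limma at an adjusted p under 0.05, against 11.5% and 12.2% of all loci tested. In either direction this made 14 members, against 23.7% of all loci. The members that fell were CRK2, CRK5, CRK7, CRK11, CRK16, CRK20, CRK23, CRK24, CRK34, CRK36, CRK37 and CRK38, and those that rose were CRK10 and CRK42. The dry mean was lower than the wet mean in 29 members and higher in 6. Of the 12 that fell, 7 (20% of members, against 6.32% of all loci) had a lower dry mean in all 7 accessions: CRK2, CRK5, CRK11, CRK16, CRK23, CRK34 and CRK38. The median log2 change was -0.17 over the members and -0.00019 over all loci. Changes were small in most members, and CRK36, CRK7 and CRK16 were the 3 called members that changed by at least 0.5 log2 units. The 21 members that were not called differed by between -0.31 (CRK18) and 0.13 (CRK22). Leaves are mixed tissue, so fewer cells of a type and less RNA per cell cannot be told apart in these falls.

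**Figure D1:**
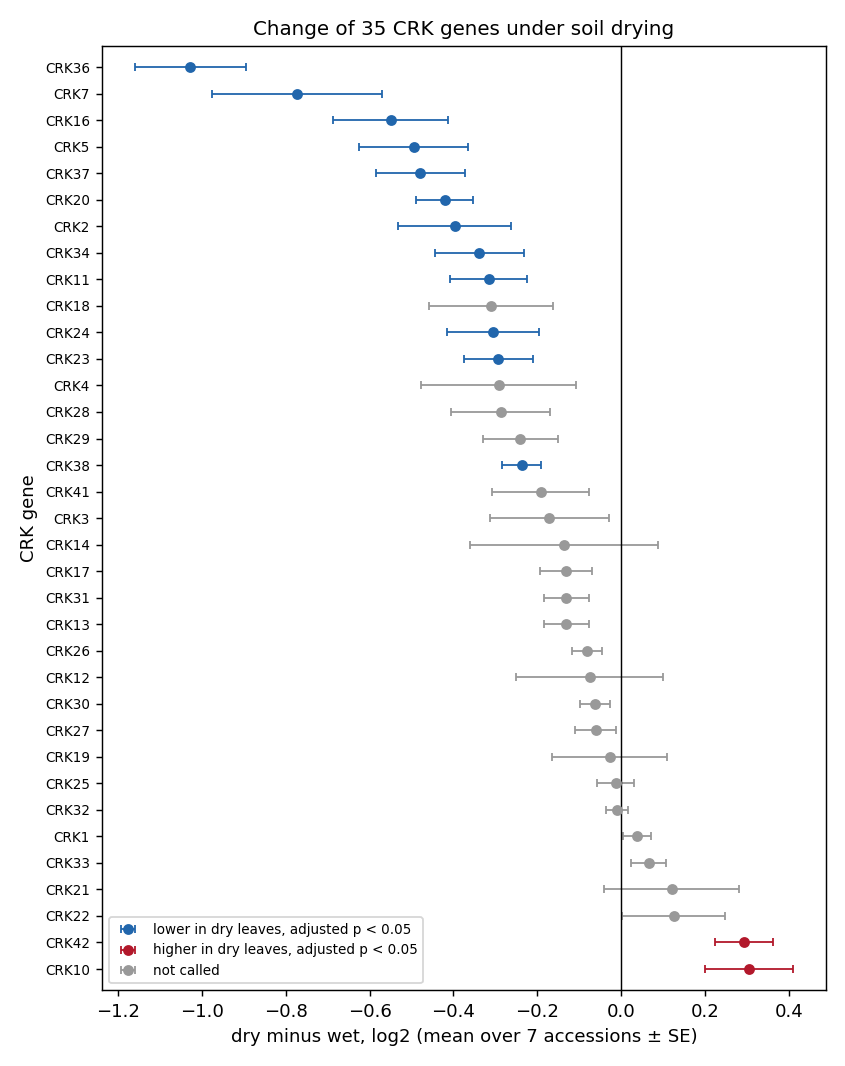
Mean log2 difference between dry and wet leaves (horizontal axis) for each of the 35 CRK genes (vertical axis), with bars of 1 standard error from the limma model over 41 arrays. Blue points are the 12 members that fell, red points the 2 that rose and grey points those not called, and 29 of the 35 points lie left of 0.

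CRK36 (AT4G04490) showed the largest mean fall of the family. CRK36 forms a complex with the cytosolic kinase ARCK1 that dampens abscisic acid and osmotic stress responses, and it has also been linked to immune signalling. Over all arrays it read between 3.67 and 5.48 with a median of 4.25 on dry arrays, and between 3.83 and 6.80 with a median of 5.28 on wet arrays. Its log2 change was -1.03 ± 0.13 (SE; limma adjusted p = 2.23e-06), and the dry mean was lower in 6 of the 7 accessions. Most dry arrays of CRK36 were near the floor, so the size of its fall is not exact.

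In Eden-1 the dry arrays gave CRK36 values of 4.49, 5.25 and 5.48, and the wet arrays 6.34, 6.54 and 6.80. In Tamm-2 the dry values were 3.74, 4.13 and 4.46 and the wet values 5.58, 5.83 and 5.92. In Ull2-5 the dry values were 4.52, 4.56 and 4.58 and the wet values 5.96, 6.30 and 6.44. Dry and wet arrays did not overlap in these 3 accessions, and they did not overlap in Omo2-3 either, where the dry values were 3.91, 4.37 and 4.54 and the wet values 4.91, 5.03 and 6.71. In Bil-5, CRK36 read 3.73, 3.94 and 4.11 on dry arrays and 4.04, 4.68 and 5.28 on wet arrays. In Got-22 it read 3.67, 3.99 and 4.05 on dry arrays and 3.83, 4.31 and 4.69 on wet arrays. In Ag-0 the 2 dry arrays spanned the wet ones. Got-22 and Ag-0 were thus near the floor in watered soil already, which limits the fall that could be seen there, and the accession change was -0.37 ± 0.34 in Got-22 and 0.02 ± 0.38 in Ag-0 (SE).

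Tested within accessions, CRK36 fell in Ull2-5 (-1.68 ± 0.34, limma adjusted p = 0.0126) and in Tamm-2 (-1.66 ± 0.34, adjusted p = 0.0136). The change of -1.49 ± 0.34 in Eden-1 did not pass (limma adjusted p = 0.0507, and 0.0773 with replicate numbers as blocks there and in Ull2-5). The Tamm-2 call ended without Tamm-2 dry replicate 3 (limma adjusted p = 0.0731) or wet replicate 1 (0.0893), and the Ull2-5 call ended without Ull2-5 dry replicate 2 (0.0605). The mean over accessions kept its call without any single array or accession, between -1.20 and -0.92.

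ARCK1 (AT4G11890), also known as CRK45 and outside the member list, was looked up after its values were seen because it is the partner of CRK36. It averaged 6.14 ± 1.09 on 20 dry arrays and 7.77 ± 0.93 on 21 wet arrays (SD), a log2 change of -1.65 ± 0.28 (SE; limma adjusted p = 6.87e-05).

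The neighbours of CRK36 in the locus numbering fell as well. CRK37 (AT4G04500) read between 4.95 and 6.71 with a median of 5.30 on dry arrays and between 5.00 and 8.40 with a median of 5.68 on wet arrays. Its mean log2 change was -0.48 ± 0.11 (SE; limma adjusted p = 0.00129). Most of this came from Eden-1, where dry arrays read 5.29, 5.63 and 6.71 and wet arrays 7.12, 8.02 and 8.40, without overlap. The Eden-1 change was -1.97 ± 0.28 (SE; limma adjusted p = 0.00062), and without Eden-1 the mean over the other 6 accessions was -0.23 (limma adjusted p = 0.0414). On the Eden-1 arrays alone the change did not pass (limma adjusted p = 0.206), in a fit that called 0 of all loci.

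CRK38 (AT4G04510) had a lower dry mean in all 7 accessions. It read between 4.21 and 4.96 with a median of 4.45 on dry arrays and between 4.26 and 5.27 with a median of 4.71 on wet arrays, a log2 change of -0.24 ± 0.05 (SE; limma adjusted p = 0.000385). The change ran from -0.51 in Tamm-2 and -0.48 in Eden-1 to -0.04 in Got-22 and -0.02 in Bil-5. All dry arrays lay below all wet arrays in Eden-1, Tamm-2, Ull2-5 and Ag-0. Its call within Tamm-2 (-0.51 ± 0.12, limma adjusted p = 0.0334) ended without the 3 arrays that stood apart (adjusted p = 0.120), and without Tamm-2 dry replicate 2 (0.0546), dry replicate 3 (0.186), wet replicate 1 (0.114) or wet replicate 2 (0.159). It also ended with replicate numbers as blocks in Eden-1 and Ull2-5 (0.0515).

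**Figure D2:**
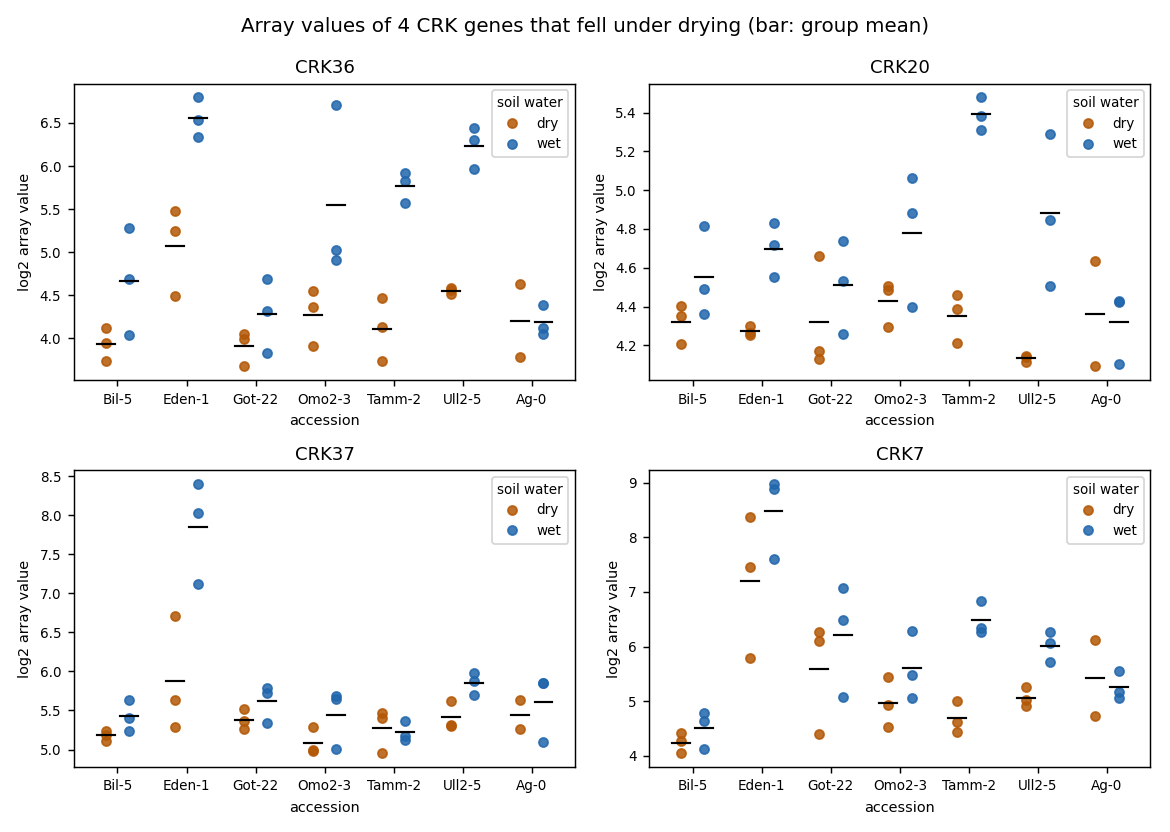
Log2 array values (vertical axes, which differ between panels) of CRK36, CRK20, CRK37 and CRK7 in each accession (horizontal axes), with 1 point per array, dry left of wet and black bars for group means. CRK36 dry arrays lie below wet arrays without overlap in Eden-1, Omo2-3, Tamm-2 and Ull2-5, and the gap of CRK37 is widest in Eden-1.

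CRK4, CRK5, CRK19 and CRK20 are known as a set whose forced expression triggers rapid cell death in leaves. CRK5 and CRK20 fell, while CRK4 and CRK19 did not pass. CRK20 (AT4G23280) read between 4.09 and 4.66 with a median of 4.28 on dry arrays and between 4.10 and 5.48 with a median of 4.72 on wet arrays, a log2 change of -0.42 ± 0.07 (SE; limma adjusted p = 3.56e-05). Most of its dry arrays were near the floor, so the size of its fall is not exact.

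In Tamm-2, CRK20 read 4.21, 4.38 and 4.46 on dry arrays and 5.31, 5.38 and 5.48 on wet arrays, a change of -1.04 ± 0.18 (SE; limma adjusted p = 0.00259). In Ull2-5 it read 4.12, 4.14 and 4.14 on dry arrays and 4.50, 4.85 and 5.29 on wet arrays, a change of -0.75 ± 0.18 (SE; limma adjusted p = 0.0279). The groups did not overlap in either accession. The Tamm-2 call held without any single array, at limma adjusted p of up to 0.0392. It did not hold on the Tamm-2 arrays alone (limma adjusted p = 0.0988), in a fit that called 3 of all loci. The Ull2-5 call ended without dry replicate 1 (0.0562), dry replicate 2 (0.101), dry replicate 3 (0.0900), wet replicate 1 (0.0600) or wet replicate 2 of Ull2-5 (0.232).

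CRK5 (AT4G23130), whose overexpression raises resistance to Pseudomonas, had a lower dry mean in all 7 accessions. It read between 5.58 and 7.75 with a median of 7.15 on dry arrays and between 6.78 and 8.29 with a median of 7.29 on wet arrays. The log2 change was -0.49 ± 0.13 (SE; limma adjusted p = 0.00545), and it kept its call without any array or accession. Dry and wet arrays did not overlap in Bil-5, Eden-1 and Tamm-2.

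CRK4 (AT3G45860) differed by -0.29 ± 0.18 (SE) and did not pass (limma adjusted p = 0.284). Bil-5 wet replicate 1 weighed on this value, since CRK4 read 8.32 there and 5.37 and 4.43 on the other wet Bil-5 arrays, against 4.37, 5.09 and 5.21 on the dry ones. Without that array the difference was -0.13 (limma adjusted p = 0.351), and without Bil-5 wet replicate 3 it was -0.41 and passed (0.0473). CRK19 (AT4G23270) differed by -0.03 ± 0.14 (SE; limma adjusted p = 0.922). CRK13, whose overexpression raises salicylic acid, was near the floor and differed by -0.13 ± 0.05 (SE; limma adjusted p = 0.0781), a value that passed without Omo2-3 (0.0209), Omo2-3 wet replicate 2 (0.0187) or Bil-5 wet replicate 3 (0.0478).

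CRK7, CRK2 and CRK11 fell as well. CRK7 (AT4G23150) takes part with CRK6 in responses to extracellular reactive oxygen. It read between 4.05 and 8.37 with a median of 4.97 on dry arrays and between 4.13 and 8.98 with a median of 6.06 on wet arrays, a log2 change of -0.77 ± 0.20 (SE; limma adjusted p = 0.00528). In Tamm-2 the dry values of CRK7 were 4.44, 4.61 and 5.00 and the wet values 6.27, 6.34 and 6.83, without overlap, and the groups did not overlap in Ull2-5 either. Without Tamm-2 the mean over the other accessions, -0.60, missed the threshold (limma adjusted p = 0.0682).

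CRK2 (AT1G70520) phosphorylates the NADPH oxidase RBOHD in immune responses and supports salt tolerance. It read between 7.26 and 8.97 with a median of 8.29 on dry arrays and between 7.66 and 9.43 with a median of 8.71 on wet arrays, a log2 change of -0.40 ± 0.13 (SE; limma adjusted p = 0.0306). Dry arrays lay below all wet arrays in Got-22 and overlapped them in the other 6 accessions, and Tamm-2 showed the largest difference, -0.92. The CRK2 call ended without Tamm-2 (limma adjusted p = 0.0930), Ull2-5 (0.0650) or Got-22 (0.0647), and without Bil-5 wet replicate 1 (0.0516), Omo2-3 wet replicate 1 (0.0505), Tamm-2 wet replicate 1 (0.0508), Ull2-5 dry replicate 3 (0.0530) or Ag-0 wet replicate 3 (0.0534). CRK3 (AT1G70530), its neighbour by locus number, read between 6.96 and 8.79 with a median of 7.86 on dry arrays and between 7.18 and 9.03 with a median of 8.14 on wet arrays. Its difference of -0.17 ± 0.14 did not pass (SE; limma adjusted p = 0.443).

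CRK11 (AT4G23190), induced by salicylic acid and oxidative stress, averaged 3.95 ± 0.22 on dry arrays and 4.27 ± 0.39 on wet arrays (SD, 20 dry and 21 wet arrays), near the floor in both. Its log2 change was -0.32 ± 0.09 (SE; limma adjusted p = 0.0111), with adjusted p = 0.0514 without Eden-1 and 0.106 without Ull2-5.

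CRK16, CRK23, CRK24 and CRK34 also fell. CRK16 (AT4G23240) averaged 5.44 ± 0.66 on dry arrays and 5.99 ± 0.74 on wet arrays (SD), a log2 change of -0.55 ± 0.14 (SE; limma adjusted p = 0.00374) with a lower dry mean in all 7 accessions. CRK34 (AT4G11530) changed by -0.34 ± 0.11, CRK24 (AT4G23320) by -0.31 ± 0.11 and CRK23 (AT4G23310) by -0.29 ± 0.08 (SE), with limma adjusted p of 0.0187, 0.0396 and 0.00887. CRK16 kept its call without any array or accession. CRK34 lost it without Eden-1 (adjusted p = 0.109) and CRK23 without Tamm-2 (0.0701). CRK24 lost it on leaving out any of 22 single arrays (up to 0.117, for dry replicate 3 of Ag-0), any of 5 accessions (up to 0.218, for Tamm-2) or the 3 arrays that stood apart (0.0775), and with replicate numbers as blocks in Eden-1 and Ull2-5 (0.0539).

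CRK28 and CRK29 lie next to each other, and CRK28 associates with the immune co-receptor BAK1. CRK28 (AT4G21400) had a lower dry mean in all 7 accessions, at -0.29 ± 0.12 (SE), but did not pass (limma adjusted p = 0.0780) unless Bil-5 dry replicate 1 (0.0355), Ull2-5 wet replicate 3 (0.0443) or Ag-0 wet replicate 2 (0.0159) was left out. CRK29 (AT4G21410) differed by -0.24 ± 0.09 (SE; limma adjusted p = 0.0514), with the largest difference, -0.87, in Ull2-5. It passed without any of 9 single arrays, with the smallest adjusted p, 0.00566, without Bil-5 dry replicate 1, and without Bil-5 (0.00965) or Tamm-2 (0.0386). It also passed with arrays centred on their medians (0.0474), without the lowest 25% of loci (0.0413) and with a trend and robust prior (0.0458).

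CRK10 and CRK42 went the other way. CRK10 (AT4G23180), a gain-of-function allele of which gives dwarf plants with active defences, read between 10.29 and 11.87 with a median of 11.11 on dry arrays and between 9.76 and 11.84 with a median of 10.85 on wet arrays. Its log2 change was 0.30 ± 0.10 (SE; limma adjusted p = 0.0328), with a higher dry mean in 6 of 7 accessions and overlapping arrays in each. Leaving out any of 10 single arrays ended the call, with an adjusted p of up to 0.106 (dry replicate 3 of Ag-0). Leaving out Got-22 (0.134), Ag-0 (0.122), Ull2-5 (0.0554) or Eden-1 (0.0517) ended it too. CRK42 (AT5G40380) averaged 4.81 ± 0.40 on dry arrays and 4.52 ± 0.27 on wet arrays (SD), a log2 change of 0.29 ± 0.07 (SE; limma adjusted p = 0.00244) that kept its call without any array or accession. Its dry arrays lay above all wet arrays in Omo2-3 and Tamm-2.

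Single accessions gave few calls of their own. In limma 3 members fell in Tamm-2 (CRK20, CRK36 and CRK38), where 0.907% of all loci fell, 2 in Ull2-5 (CRK20 and CRK36, against 0.879% of all loci) and 1 in Eden-1 (CRK37, against 0.203%). In Bil-5 limma called 0 members, while 1.33% of all loci fell there and 2.86% rose. It also called 0 in Got-22 (0.0378% of loci fell and 0.0567% rose), in Omo2-3 (0% either way) and in Ag-0 (0.208% and 0.213%). At an unadjusted p under 0.05 there were 6 members in Bil-5, 2 in Got-22, 3 in Omo2-3 and 1 in Ag-0. With each of these accessions fitted on its own arrays there were 2, 3, 3 and 0 at that p. On its own arrays Ull2-5 kept 1 member, CRK36, where 28 of all loci were called. Tamm-2 and Eden-1 kept 0 members, with 3 and 0 of all loci called. These fits called few loci of any kind, so a call lost there says little about a member. At an unadjusted p under 0.05 the own-array fits of Tamm-2 and Eden-1 held 11 and 9 members. The share of all loci at that unadjusted p was not counted for any accession. With array quality weights the Tamm-2 falls of CRK36 (limma adjusted p = 0.0624) and CRK38 (0.0962) did not pass. No member rose in any accession, against 0.0945% of loci in Eden-1, 0.35% in Tamm-2 and 0.529% in Ull2-5. Members whose dry arrays all lay below all wet arrays numbered 10 in Tamm-2 (28.6% of members, 8.1% of all loci), 9 in Eden-1 (25.7% and 7.63%) and 8 in Ull2-5 (22.9% and 9.57%). They numbered 5 in Bil-5 (14.3% and 7.42%), 5 in Omo2-3 (14.3% and 9.51%), 4 in Ag-0 (11.4% and 14%) and 2 in Got-22 (5.71% and 8.01%). The median change of the 35 members was -0.34 in Tamm-2, -0.21 in Omo2-3, -0.20 in both Bil-5 and Eden-1, -0.14 in Ull2-5, -0.07 in Got-22 and -0.04 in Ag-0, with medians of all loci between -0.01 and 0.02.

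Whether the accessions differed in their drying change was tested by the interaction F test of limma, which called 0 of 35 members and 0.0284% of all loci. At an unadjusted p under 0.05 there were 5 members (CRK20, CRK27, CRK36, CRK37 and CRK38). The share of all loci at that unadjusted p was not counted, so this number has no background to be read against. CRK37 had the smallest p among members, 0.000406 (limma adjusted p = 0.226). It passed without Eden-1 dry replicate 1 (adjusted p = 0.0201) or without Eden-1 wet replicate 1 (0.0415), so single arrays decide that value.

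Most members differed between accessions. Over both water levels, 25 of 35 members (71.4%) differed between the 7 accessions by limma's F test at an adjusted p under 0.05, against 31.4% of all loci. In 16 members (45.7%) that passed, accession means also spanned at least 1 log2 unit, against 8.49% of all loci. The span of accession means exceeded the size of the mean drying change in each of the 35 members. A span is the largest of several differences and the drying change is a mean, so this outcome was nearly fixed in advance. No conclusion is drawn from it.

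Eden-1 held the highest level of the 7 accessions more often than any other. It had the highest mean in 18 members (51.4%, against 19% of all loci). Set against the mean of the other 6 in limma, 15 members (42.9%) were higher in Eden-1 and 4 (11.4%) lower, against 10.7% and 8.09% of all loci. The higher ones were CRK4, CRK5, CRK7, CRK16, CRK17, CRK18, CRK23, CRK24, CRK26, CRK27, CRK31, CRK34, CRK36, CRK37 and CRK38, and the lower ones CRK12, CRK29, CRK30 and CRK41. Calls of CRK5, CRK17, CRK31, CRK29 and CRK30 ended without 1 or another Eden-1 array, with limma adjusted p of up to 0.0907, 0.0943, 0.165, 0.139 and 0.0786. For CRK31 the difference was 0.24 over all arrays and 0.16 without Eden-1 dry replicate 1.

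CRK4 had the smallest p of the family for accession. In Eden-1 it read between 6.92 and 7.48 on the 3 dry arrays and 7.20, 8.27 and 8.39 on wet arrays. Outside Bil-5, all arrays of the other accessions read between 4.33 and 4.82. CRK4 was thus 2.88 ± 0.26 log2 units higher in Eden-1 than in the mean of the other 6 (SE; limma adjusted p = 2.11e-09). Among the other 6 accessions alone the span was 1.01, which rested on Bil-5 and did not pass (F test adjusted p = 0.159).

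CRK7 was likewise highest in Eden-1, with a mean of 7.84 over both water levels against 5.34 in the other 6 accessions, a difference of 2.51 ± 0.28 (SE; limma adjusted p = 1.58e-07). Its lowest accession was Bil-5, with dry values of 4.05, 4.27 and 4.41 and wet values of 4.13, 4.63 and 4.78. Without Eden-1 the accessions still differed in CRK7, with a span of 1.52 (F test adjusted p = 0.0138). CRK37 was 1.45 ± 0.15 higher in Eden-1, CRK18 1.19 ± 0.21, CRK36 1.18 ± 0.19, CRK34 1.15 ± 0.15 and CRK23 1.10 ± 0.12 (SE; limma adjusted p between 3.19e-08 and 0.000125). Without Eden-1 the accession test no longer passed for CRK37 (span 0.38, adjusted p = 0.132) or CRK34 (0.71, 0.0772), and CRK23 passed with a span of 0.52 (0.0258). CRK36 was in addition lower in Got-22 and Ag-0 and higher in Ull2-5 than in the mean of the others.

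**Figure D3:**
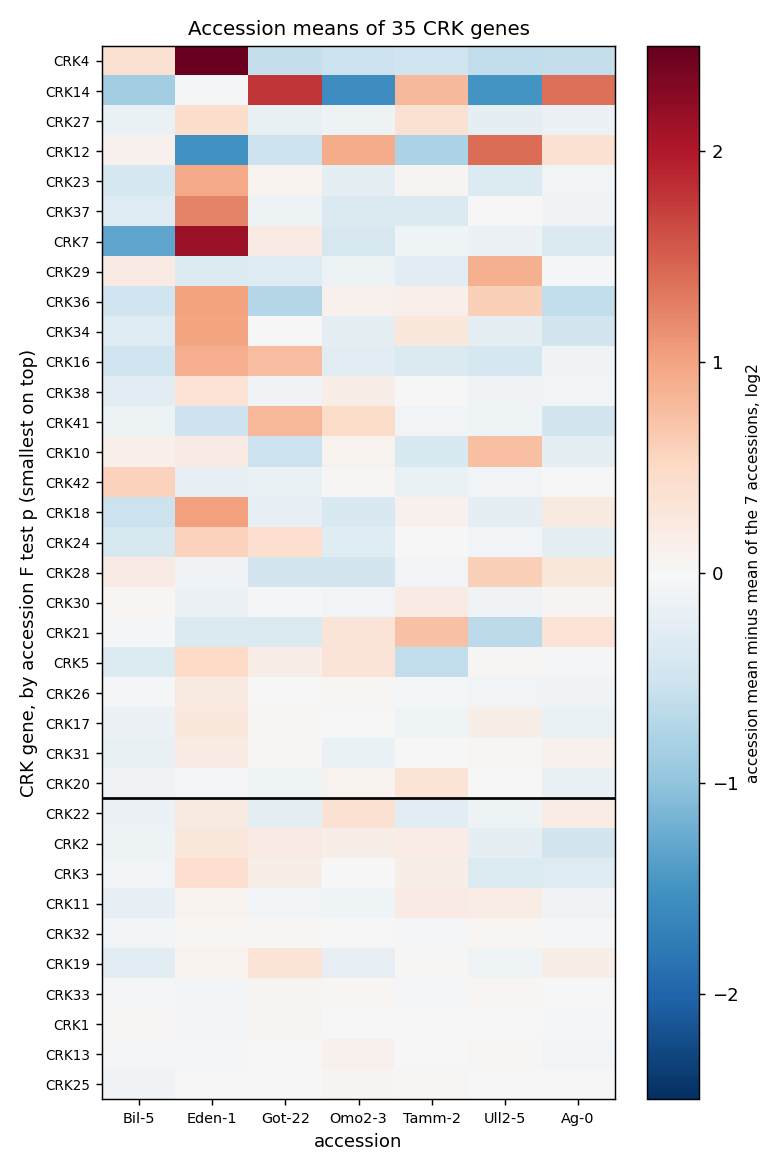
Mean log2 value of each CRK gene (rows, ordered by the p of the accession F test) in each of the 7 accessions (columns) over both water levels, as a difference from that gene's mean over the accessions (colour scale). The 25 genes above the black line differ between accessions at an adjusted p under 0.05, and Eden-1 holds the highest mean in 18 of the 35 rows.

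CRK12 and CRK14 sit close together in the CRK5 to CRK24 run and ranked the accessions in different ways. CRK12 (AT4G23200) was highest in Ull2-5, with dry values of 8.40, 8.52 and 8.61 and wet values of 7.59, 7.75 and 8.73, and next highest in Omo2-3, at a mean of 7.79. It was lowest in Eden-1, with dry values of 5.28, 5.46 and 5.62 and wet values of 5.20, 5.24 and 5.36. Ull2-5 was 1.64 ± 0.25 above the mean of the other 6 accessions and Eden-1 differed from them by -1.76 ± 0.25 (SE; limma adjusted p = 3.8e-05 and 5.54e-06).

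CRK14 (AT4G23220) was lowest in Omo2-3 and Ull2-5, the accessions with the highest CRK12. In Ull2-5 it read 4.19, 4.67 and 4.76 on dry arrays and 4.13, 4.47 and 4.50 on wet arrays, and in Omo2-3 it read 4.01, 4.44 and 4.69 on dry arrays and 4.04, 4.49 and 4.65 on wet arrays, around the floor in both. In Got-22 the dry values were 6.99, 8.23 and 8.85 and the wet values 6.36, 7.59 and 8.29. No Got-22 array overlapped those of Ull2-5 or Omo2-3. Ag-0 was high in both genes, at a mean of 7.26 for CRK12 and 7.31 for CRK14, and its CRK14 difference from the other 6 was 1.60 ± 0.35 (SE; limma adjusted p = 0.0049). The span of accession means was 3.33 for CRK14 (F test adjusted p = 1.44e-07) and 2.91 for CRK12 (2.78e-07). Neither gene passed for drying, with adjusted p of 0.736 and 0.821.

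**Figure D4:**
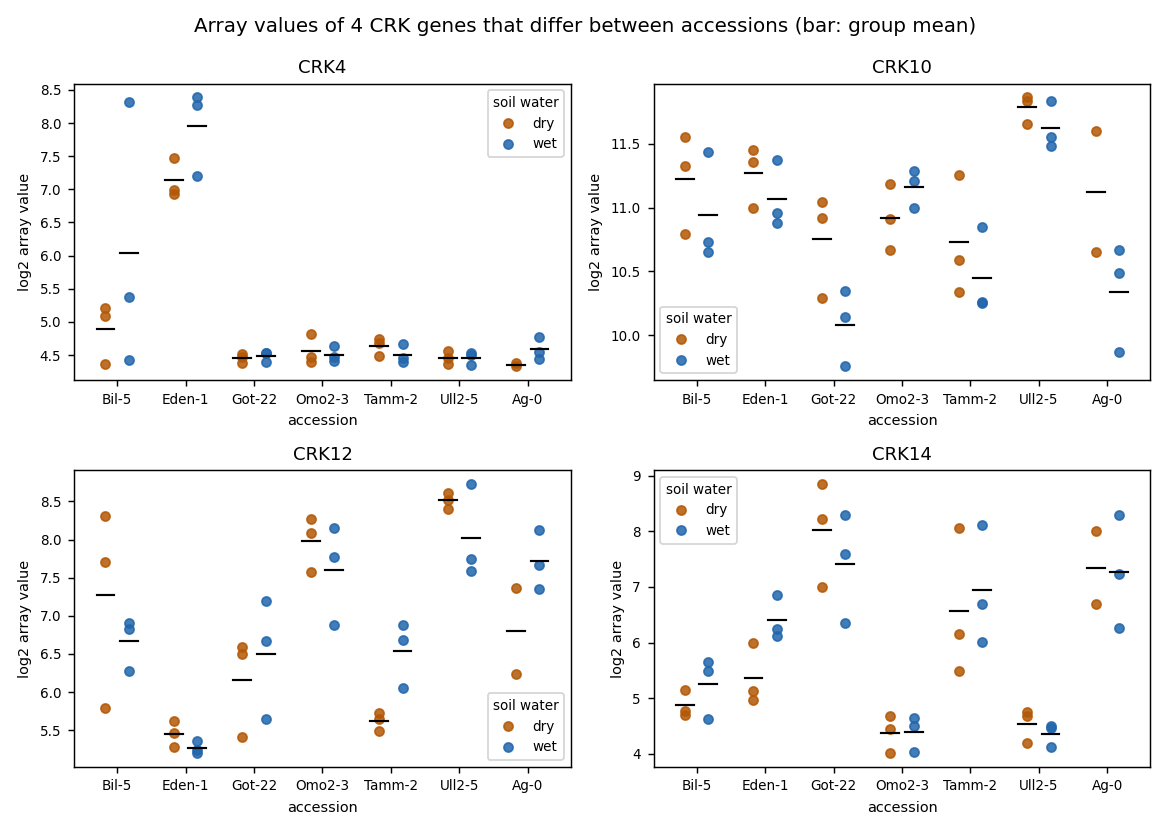
Log2 array values (vertical axes, which differ between panels) of CRK4, CRK10, CRK12 and CRK14 in each accession (horizontal axes), with 1 point per array, dry left of wet and black bars for group means. CRK4 is high in Eden-1 and on 1 wet Bil-5 array, and the 2 accessions with the highest CRK12, Ull2-5 and Omo2-3, are those with the lowest CRK14.

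The other accessions had fewer members apart from the rest than Eden-1 had. In Ull2-5, 5 members were higher and 4 lower than the mean of the other 6 in limma, against 4.79% and 3.2% of all loci. In Got-22 there were 4 and 3 (3.95% and 3.85%), in Tamm-2 4 and 2 (3.58% and 4.25%) and in Omo2-3 2 and 2 (3.18% and 4.83%). Bil-5 had 1 and 3 (2.24% and 2.26%) and Ag-0 had 1 and 1 (1.86% and 1.66%).

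CRK10, CRK28 and CRK29 were highest in Ull2-5. CRK29 was 1.05 ± 0.13, CRK10 0.87 ± 0.15 and CRK28 0.71 ± 0.17 log2 units above the mean of the other 6 accessions (SE; limma adjusted p of at most 0.00597). Without Ull2-5 the accession test of CRK29 did not pass (span 0.55, adjusted p = 0.0872). CRK27 was higher in Eden-1 (0.51 ± 0.07) and in Tamm-2 (0.44 ± 0.07), CRK41 in Got-22 (0.96 ± 0.16) and in Omo2-3 (0.53 ± 0.16), and CRK42 in Bil-5 (0.68 ± 0.10; SE), each past the threshold in limma. Of the 10 members that did not pass for accession, CRK1, CRK11, CRK13, CRK32 and CRK33 were near the floor, and CRK2, CRK3, CRK19, CRK22 and CRK25 were not.

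Members inside and outside the tandem run were counted apart. Of 16 measured members of the run CRK5 to CRK24, 7 fell and 1 rose under drying and 12 differed between accessions. Of the 19 others, 5 fell, 1 rose and 13 differed between accessions. Of all loci 11.5% fell, 12.2% rose and 31.4% differed between accessions. The median drying change was -0.21 in the run and -0.17 elsewhere, with no test of the difference. No member had values identical to those of another locus. Near-identical copies may still share probes, which was not tested.

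Other receptor and defence genes were counted beside the family. Of 16 genes of salicylic acid signalling, 0 rose and 7 fell under drying, where 12.2% of all loci rose and 11.5% fell. The 4 with the smallest p were EDS5, which exports the precursor of salicylic acid from the chloroplast (-0.71 ± 0.12), EDS16, the isochorismate synthase gene (-0.81 ± 0.15), PAD4 (-0.77 ± 0.20) and PBS3 (-0.63 ± 0.18; SE). Of the same 16 genes, 12 were higher in Eden-1 than in the other 6 accessions, among them the marker gene PR1, by 3.82 log2 units, against 10.7% of all loci. The same count was 6 of 19 pattern-triggered immunity genes, 3 of 5 wall-associated kinases, 1 of 8 plasmodesmata-located proteins and 0 of the leaf, root, phloem and guard cell markers. PSBO2 differed by -1.65 in Eden-1 and WAK2 by -2.37. Whether any of these genes had a part in the CRK falls or in the CRK levels of Eden-1 was not tested.

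Of 19 receptors and partners of pattern-triggered immunity, 4 rose and 4 fell, with FLS2, the flagellin receptor, at -0.63 ± 0.12, CERK1, of chitin perception, at -0.53 ± 0.11, RLP23 at -0.99 ± 0.21 and MPK6 at -0.33 ± 0.08 (SE). The 4 that rose were PEPR1 (0.57 ± 0.21), LYK5 (0.54 ± 0.14), RBOHD, the oxidase that CRK2 acts on (0.46 ± 0.16), and EFR (0.17 ± 0.06; SE; limma adjusted p between 0.00471 and 0.0452). Of 8 plasmodesmata-located proteins, which carry the same kind of DUF26 domains without a kinase, 1 rose and 2 fell: PDLP3 rose by 0.64 ± 0.17, and PDLP8 and HWI1 (PDLP5) changed by -0.24 ± 0.04 and -0.64 ± 0.12 (SE). PDLP7, the next by p, did not pass. Of 5 wall-associated kinases WAK3 fell (-0.28 ± 0.09, SE) and the other 4 did not pass. Of all loci 12.2% rose and 11.5% fell, and these short lists were not tested against those shares.

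Markers of other cells moved in part. All 4 phloem markers (APL, SUC2, SWEET12 and SWEET11) fell, by 0.32 to 0.72 on the log2 scale, with list means from 7.88 to 9.28 on dry arrays and from 8.53 to 9.75 on wet arrays. Of 5 guard cell markers 0 rose and 1 fell (FMA), with list means from 4.60 to 5.19 on dry arrays and from 4.69 to 5.39 on wet arrays. Of 6 root markers 0 rose and 0 fell in limma, with 0 at an unadjusted p under 0.05, and of 3 leaf markers PSBO2 and PSBO1 rose. Of all loci 12.2% rose and 11.5% fell. The part of these marker changes in the CRK results was not tested.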

How the data were processed

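The authors deposited 1 log2 value per locus and array. The scale was read off their range, 3.35 to 14.30. The submitters' processing notes name RMA and MAS5 with no role or version, and the genome build is not given in the sources used here. Precision depends on how many arrays each group has. The table held 0 columns of other samples.

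In limma 3.58.1 (R 4.3.3), lmFit with 14 group means was run on all loci and 41 arrays, followed by eBayes (residual degrees of freedom 27, prior 2.06). Drying is the mean of dry minus wet over the 7 accessions. Interaction and accession F tests had 6 numerator degrees of freedom. Two-sided p-values were corrected over every locus (Benjamini-Hochberg), and 0.05 was the threshold. They measure the spread between these arrays. The code was tested on simulated data. Members and lists were chosen with earlier results of these data known. Members past a threshold, the 10 smallest accession p-values and up to 4 genes per list are named with statistics. The other risers among immune receptors, PR1, WAK2, CRK3, CRK4, CRK13, CRK19, CRK28, CRK29 and further accession differences were added after their values were seen. Alternatives were other normalizations, filters, variance models and weights, a replicate block, an additive model, own-array fits, wet arrays only, and leaving out arrays or accessions. Same-numbered dry and wet arrays were taken as pairs in Eden-1 and Ull2-5, where all 3 pairs correlated above 0.1 in their deviations from group means. A fit with these pairs as blocks was added after the data were seen.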

Additional observations from a re-analysis of the deposited data

How the results depend on the processing

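The counts of 12 members that fell and 2 that rose kept the same size under quantile normalization, with the replicate block and in the additive model, while 13 fell and 2 rose with median centring and with the trend and robust prior. Without the 3 arrays of quality weight under 0.5, 11 fell and 2 rose. Requiring a mean change of at least 0.5 log2 units left 3 members, of which 3 fell and 0 rose. The share of all loci at that size was not counted. Leaving out 1 array or accession gave 9 to 14 falls, 1 or 2 rises, 10 to 16 calls in all, 17 to 26 accession differences, 12 to 16 members higher in Eden-1, 0 or 1 interaction and 4 to 10 calls within accessions. The share of all loci that fell lay between 9.52% (without Got-22) and 12.3% (without Tamm-2 dry replicate 1) in these fits. The share of all loci that differed between accessions also moved, from 20.1% (without Eden-1) to 35.2% (without Bil-5 dry replicate 3). No share was counted there for the rises, the calls in all, the members higher in Eden-1, the interaction or the calls within accessions. With array quality weights or replicate blocks the share of all loci called within accessions was not counted either. The 6 calls within accessions became 10 with array quality weights and 1 with each accession fitted on its own arrays. Those own-array fits called between 0 (Eden-1) and 28 (Ull2-5) of all loci. Of the 25 members that differ between accessions, 16 spanned at least 1 log2 unit. On wet arrays alone 18 members differed between accessions, and the share of all loci in that fit was not counted. CRK19, whose drying difference passed under none of the alternatives run, changed sign with array quality weights (0.077) and lay between -0.11 and 0.071 when 1 array or accession was left out. Same-numbered dry and wet arrays correlated above 0.1 in 3 of 3 pairs in Eden-1 (0.12 to 0.54) and in Ull2-5 (0.15 to 0.37). They did so in 2 of 3 in Tamm-2, in 2 of 2 in Ag-0 and in 0 of 3 in Bil-5, Got-22 and Omo2-3. Of 20 dry arrays, 7 correlated best with the wet array of their own number, out of 3 wet arrays each. That is about the number that arrays without pairing would give. With the replicate block within Eden-1 and Ull2-5, chosen after seeing the data, 13 members fell and 2 rose, with CRK24 lost and CRK17 and CRK31 gained, and 5 calls within accessions were left, with CRK38 in Tamm-2 lost. With 1 replicate block over all accessions there were 8 calls within accessions, which added CRK36 in Eden-1 (-1.49, limma adjusted p = 0.0498) and CRK27 in Tamm-2 (-0.47, 0.0436). Signals near the floor limit the falls that could be seen, and groups of 2 or 3 arrays limit the tests within accessions.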
